A study of Mus musculus with 35 samples.

Results

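Ribosome biogenesis factors are the proteins that make, modify, cut and assemble ribosomal RNA into the small and large ribosomal subunits. A list of 38 such genes was taken, and a gene was kept where the array annotation gave at least 1 probe set naming it alone. This left 35 of 38 listed genes, among 17097 genes measured in all, with Tsr1, Mybbp1a and Gnl3 not measured. The brightest probe set, by its mean over all arrays, stood for each gene.

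Whole lung of adult male wild-type C57Bl/6 mice was profiled after the animals, caged singly, had breathed styrene, a volatile solvent and plastics monomer, or clean air for 6 h. There were 35 arrays in 7 groups of 5, namely air alone (0 ppm) and styrene at 1, 5, 10 or 20 ppm, at 40 ppm and at 120 ppm, and tissue was collected the next morning. All animals were untreated apart from the exposure, and the 0 ppm group breathed air. The labels call the arrays of a group biological replicates, but animal number 15 occurs in the titles of both a 1 ppm and a 5 ppm array, so separate animals are not certain and p-values measure the spread between these arrays. The values are log2 signals of the Affymetrix HT MG-430 PM array, and no counts lie behind them. In whole tissue, a change in the number of cells of a type and a change in RNA per cell cannot be told apart.

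Ribosome production begins in the nucleolus, where RNA polymerase I transcribes a long precursor RNA. Small nucleolar ribonucleoproteins (snoRNPs) guide its chemical modification and early cutting, and a large complex called the small subunit processome folds the 5' part of the precursor into the pre-40S particle. Other factors build the pre-60S particle and pass both particles to the cytoplasm. The genes of these factors are known for rising together in cells that enter growth and division, and many are described as targets of the transcription factor Myc.

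As a check of the tissue, Sftpc, the surfactant protein of alveolar type 2 cells, had a mean of 13.83 at 0 ppm, and Ager, a marker of alveolar type 1 cells, 13.47. The 120 ppm arrays stood apart from all others. Poly-A spike-ins, bacterial RNAs added before labelling, averaged 8.23 there (lowest 7.73) and between 6.30 and 6.64 in the other groups (highest 6.89). Each of the nonspecific-hybridisation controls, probes with no mouse target sorted by their number of G and C bases, was also higher at 120 ppm than at 0 ppm (two-sided exact permutation p = 0.007937 each, the smallest possible with 5 against 5). If the group with the lower signal had arrays under the highest of these controls, the fold is a lower bound, written "at least", for which such arrays took the value of that control. No fold is given where the bound did not exceed 1.

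The members as a group had higher signal from 10 to 40 ppm, and the largest number had risen at 20 ppm. The mean over the 35 members was 6.81 in air (SD 0.04, n = 5). It was 6.75, 6.88, 7.08, 7.19, 7.13 and 7.02 in the groups from 1 to 120 ppm in order of dose, with an SD of 0.07 (n = 5) at 20 ppm. The 5 arrays at 10 ppm spanned 6.99 to 7.17 and those at 0 ppm 6.76 to 6.86, so the groups did not overlap in this mean. The median difference from 0 ppm over the members was, in the same order, -0.05, 0.10, 0.28, 0.41, 0.30 and 0.10. Over all genes the same medians lay between -0.02 and 0.01 up to 40 ppm and reached 0.155 at 120 ppm. Which of the medians at 120 ppm was the higher depended on the setting. The members' median against that of all genes was 0.497 against 0.549 with arrays centred on their median, but 0.367 against 0.0486 with repeated quantile normalization, 0.343 against -0.015 with cyclic loess and 0.232 against -0.356 with dim genes left out. With the mean of all probe sets of a gene the members' median was -0.0309.

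**Figure D1:**
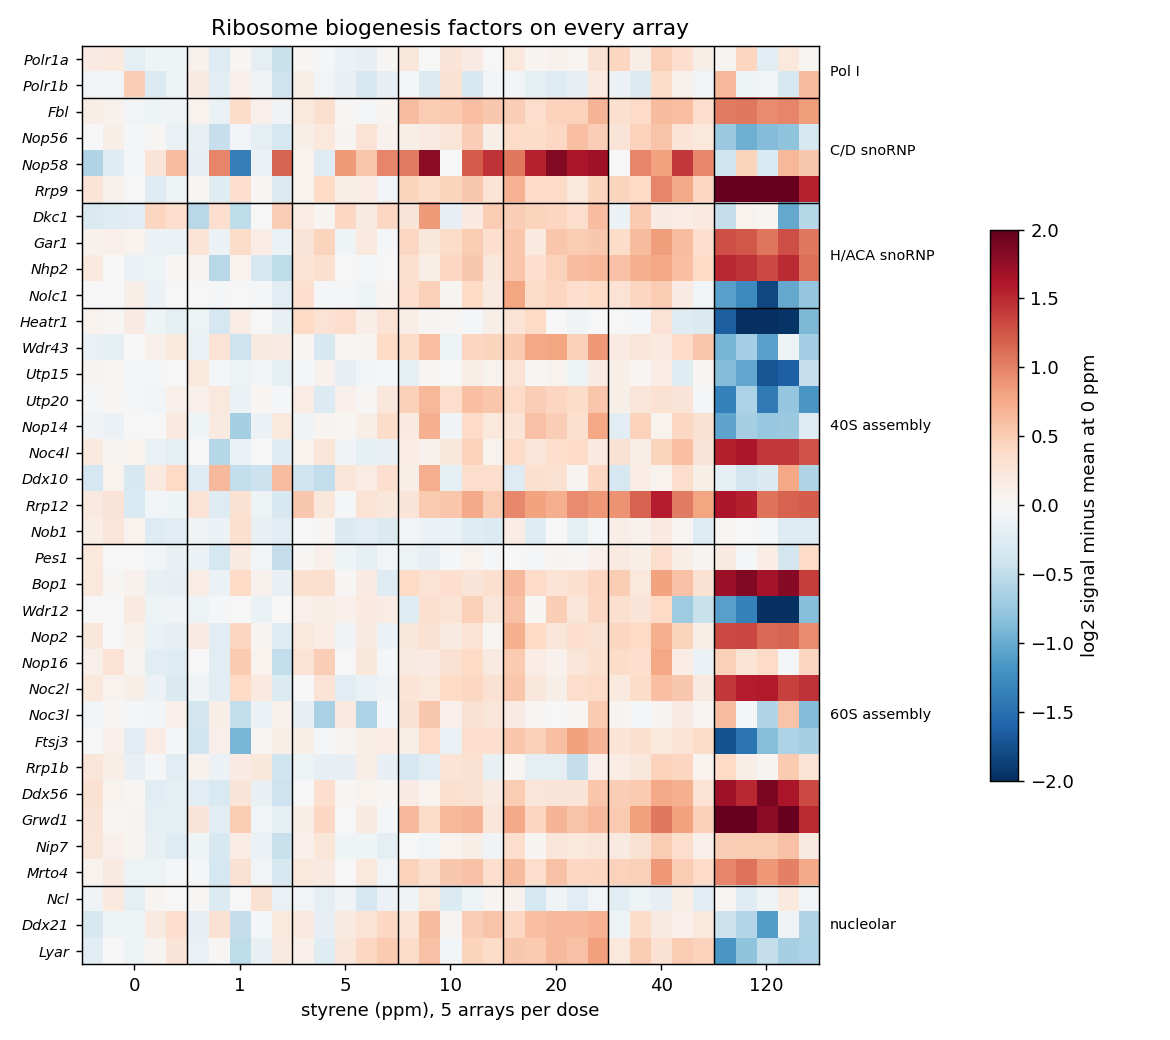
Heat map of the 35 measured ribosome biogenesis factors (rows, by role) on the 35 arrays (columns, 5 per dose, ordered by replicate number), coloured by log2 signal minus the gene's mean at 0 ppm; the colour scale ends at -2 and 2. Most rows are warmer from 10 to 40 ppm, and at 120 ppm the rows separate into strongly higher ones such as Rrp9 and strongly lower ones such as Heatr1.

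In limma with Benjamini-Hochberg adjustment over all 17097 genes and a threshold of 0.05, used for every call below, 0 members passed at 1 ppm in either direction, where 0% of all genes passed. At 1 ppm 2 members, Nhp2 (-0.26) and Nop56 (-0.24), and 1190 of all genes had an unadjusted p under 0.05. At 5 ppm 0 members were higher (1.13% of all genes) and 0 lower (0.0234%, or 1.16% in either direction), with 0 members at an unadjusted p under 0.05. The largest difference at 5 ppm was that of Nop58, 0.44 (SE 0.36), with an adjusted p of 1. At neither dose did the arrays of any member separate completely from those at 0 ppm, whereas at 5 ppm 2.08% of all genes were higher and 0.819% lower without overlap, and at 1 ppm 0.567% and 1.61%.

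At 10 ppm 7 members rose and 0 fell, against 5.17% of all genes higher and 6.62% lower. They were Fbl, Nop58, Gar1, Utp20, Rrp12, Grwd1 and Mrto4, and 6 members had no overlap with 0 ppm (5.62% of all genes, with 8.05% lower without overlap and 0 members). With cyclic loess normalization the split over all genes at this dose turned from 884 higher and 1132 lower to 1119 higher and 956 lower, and 11 members rose. Leaving out replicate 4 at 10 ppm reduced the 7 to 4. At 20 ppm 19 members rose and 0 fell, against 6.45% of all genes higher and 6.74% lower, and 18 were higher without overlap (7.33%) and 0 lower (8.47%). At 40 ppm 13 rose and 0 fell, against 7.69% and 5.04%, and 10 were higher without overlap (7.65%) and 0 lower (5.45%). A straight line fitted to log2(dose + 1 ppm), over the 30 arrays from 0 to 40 ppm, had a rising slope for 24 members and a falling one for 0, against 13.2% of all genes rising and 12.9% falling (26% in either direction). The 11 members whose slope did not pass were Polr1b, Dkc1, Heatr1, Utp15, Ddx10, Nob1, Pes1, Wdr12, Noc3l, Rrp1b and Ncl.

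Between neighbouring doses, 10 ppm against 5 ppm separated 2 members upwards, against 1.5% of all genes. These were Fbl, which differed by 0.44 (SE 0.09) with an adjusted p of 0.00178, and Utp20, by 0.48 (SE 0.11) with an adjusted p of 0.00791, and 0 members fell (3.14%, or 4.64% in either direction). Without overlap 3 members, Fbl, Utp20 and Mrto4, were higher (2.5% of all genes) and 0 lower (5.77%). Over all genes this comparison held 257 higher and 537 lower calls, and 370 and 264 once each array was centred on its median. From 10 to 40 ppm Rrp12 alone rose further (4.25% of all genes), by 0.57 (SE 0.14) with an adjusted p of 0.0129, and 0 members fell (1.64%, or 5.88% in either direction). Without overlap 1 member, Rrp12, was higher (6.42%) and 1, Utp20, lower (2.63%). The call of Rrp12 was lost without replicate 1 at 10 ppm or without replicate 3 at 40 ppm. Centring moved the all-gene split of 726 higher and 280 lower to 370 and 323.

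At 120 ppm the members divided. Against 0 ppm, 13 rose and 11 fell, in a comparison where 42.9% of all genes were higher and 31.9% lower, or 74.8% in either direction, so a call at this dose is common to most genes. Of these, 12 risers and 9 fallers had no overlap with 0 ppm (25.2% and 24.5% of all genes). The risers were Rrp9, Grwd1, Bop1, Ddx56, Noc2l, Noc4l, Nhp2, Rrp12, Gar1, Nop2, Fbl, Mrto4 and Nip7. The fallers were Heatr1, Wdr12, Nolc1, Utp15, Utp20, Ftsj3, Nop56, Lyar, Wdr43, Nop14 and Ddx21. Against 40 ppm 11 were higher (39.8% of all genes) and 12 lower (31.1%, or 70.9% in either direction), with 10 in each direction not overlapping (22.6% and 23.2%).

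**Figure D2:**
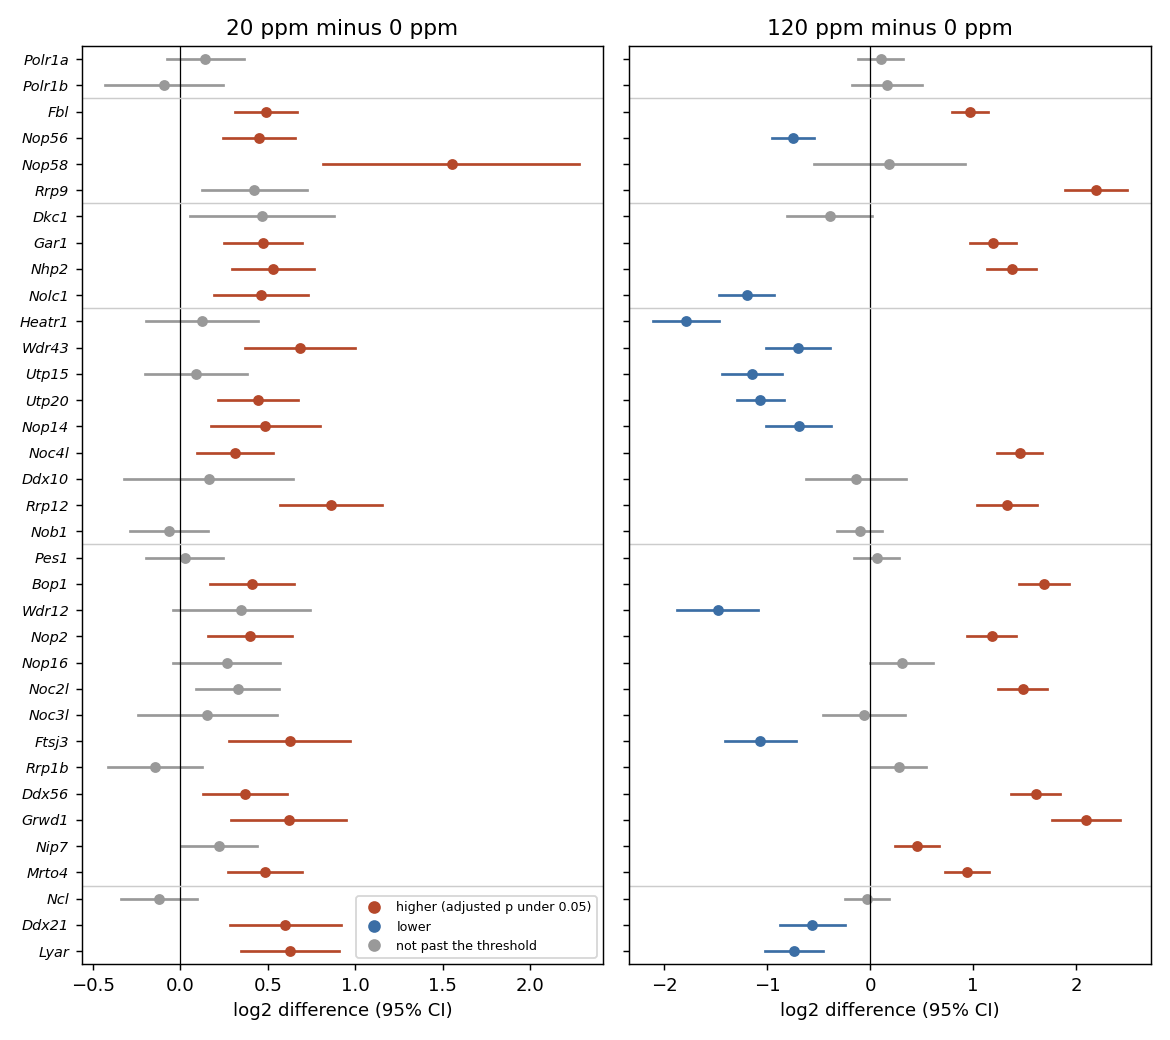
Difference of each member from 0 ppm at 20 ppm (left) and 120 ppm (right), in log2 units, with limma's 95% confidence interval; the 2 panels have different horizontal scales. Red marks an adjusted p under 0.05 and higher, blue the same and lower, grey not past that threshold; 19 are red on the left, and 13 red and 11 blue on the right.

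The technical values that move with 120 ppm stand beside this split. The rise of the nonspecific controls grew with their G and C content, from 0.15 for probes with 3 such bases to 0.68 for those with 24 and 1.09 for those with 25, while the same differences at 20 ppm lay between -0.04 and 0.06. The highest control averaged 6.08 at 0 ppm and 7.16 at 120 ppm, and the next one 4.08 and 4.76. Of the 11 fallers, 9 had every 120 ppm array below the highest control, so a fold is given for only 3, whereas 12 of the 13 risers were above it on every array at 0 ppm. With the poly-A level as a covariate the share of all genes called went from 74.8% to 26.3%. The poly-A levels at 120 ppm did not overlap those of the other groups. With this covariate 5 members were called lower (Heatr1, Nob1, Nolc1, Nop56 and Utp20). Of the called members Wdr43 (0.0012), Nop14 (0.51), Ddx21 (0.22) and Nip7 (-0.36) changed direction. Calls were also lost for the risers Gar1 (0.57), Nop2 (0.48) and Mrto4 (0.25). Among the fallers they were lost for Utp15 (-0.47), Wdr12 (-0.76), Ftsj3 (-0.51) and Lyar (-0.013). With arrays centred on their median 20 members were called higher, and the all-gene split went from 7342 higher and 5450 lower to 10650 and 4044. Among the fallers, Wdr43 and Ddx21 did not pass with centring or with repeated quantile normalization. The part of spike-in level, control level or probe composition in the split was not tested.

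**Figure D3:**
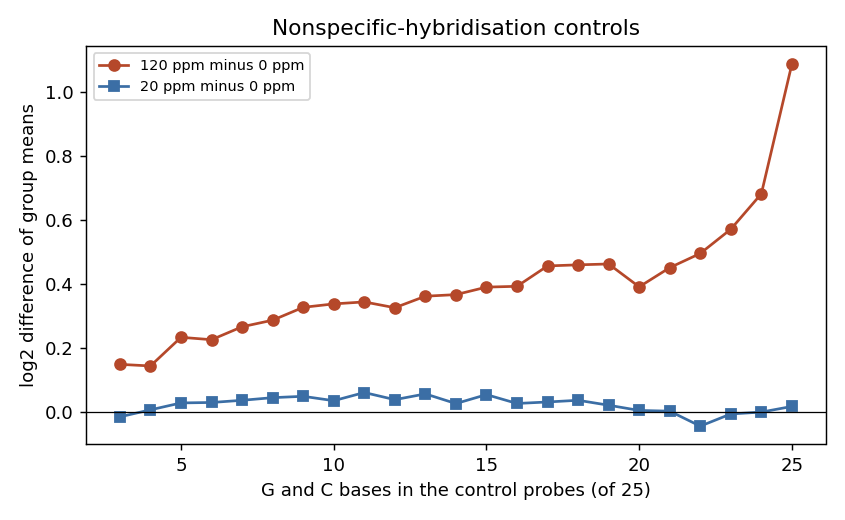
Difference of group means (5 arrays each) of the nonspecific-hybridisation controls from 0 ppm, in log2 units, by the number of G and C bases in their 25-base probes, for 120 ppm (red circles) and 20 ppm (blue squares). The 120 ppm differences climb from 0.15 to 1.09, and the 20 ppm differences stay near 0.

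The promoters of several members carry short motifs known for growth-linked factors, and 4 windows are shown because they hold, or lack, those motifs in members of different course. RefSeq windows of GRCm38.p6, from 250 bases before to 50 bases from the start, existed for 35 of the 38 listed genes. The E-box letters CACGTG, the same on both strands and bound by Myc with Max, were searched, as was the ETS core CCGGAAG or its reverse complement CTTCCGG. In the windows shown, matches of the 2 motifs do not overlap. Each line below gives 130 bases, 100 before and 30 from the start, 5' to 3' on the gene's strand, with motif letters in capitals. All 4 genes lie on the plus strand, at chr1:59684906-59685035 for Nop58, chr17:71616115-71616244 for Wdr43, chr6:125131783-125131912 for Nop2 and chr13:12395275-12395404 for Heatr1.
Nop58: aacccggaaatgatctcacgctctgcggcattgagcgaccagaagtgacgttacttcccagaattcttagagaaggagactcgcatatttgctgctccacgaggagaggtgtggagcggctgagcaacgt
Wdr43: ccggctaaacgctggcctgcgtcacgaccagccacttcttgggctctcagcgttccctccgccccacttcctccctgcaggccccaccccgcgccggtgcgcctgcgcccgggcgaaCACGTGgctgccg
Nop2: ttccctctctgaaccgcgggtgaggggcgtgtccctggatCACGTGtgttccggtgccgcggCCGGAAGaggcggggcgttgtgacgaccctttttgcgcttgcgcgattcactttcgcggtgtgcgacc
Heatr1: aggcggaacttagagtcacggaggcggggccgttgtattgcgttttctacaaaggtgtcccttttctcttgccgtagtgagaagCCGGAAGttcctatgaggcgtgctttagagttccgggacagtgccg

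Wdr43, with an E-box, rose at 20 ppm and, by its brightest probe set, fell at 120 ppm. Nop2, with both motifs, rose at 20 and 120 ppm. Heatr1, with an ETS core, did not pass below 120 ppm and fell there, and Nop58, with no exact match to either in its window, rose most at 20 ppm. The Nop58 window holds CCGGAAA, which differs from the ETS core searched in its last letter alone. Over the list, 7 members (20.0%) held the E-box, Grwd1, Mybbp1a, Nop2, Pes1, Tsr1, Utp20 and Wdr43, against 8.09% of all 27025 genes with a window, and 4 of the 5 that were measured rose with dose up to 40 ppm. The ETS core was in 11 members (31.4%), against 9.93% of all genes, and 7 of the 10 that were measured rose with dose, beside 24 of all 35 measured members. Member windows had a median G and C content of 59.7%, against 52.7% for all windows. A match describes these letters alone. The genes without a matched window are Fbl, Rrp12 and Bop1.

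The catalytic core of RNA polymerase I, the enzyme that makes the precursor, had 0 calls at any single dose. Polr1a, the largest subunit, read 6.52, 6.56, 6.16, 6.27 and 6.27 at 0 ppm, 6.58, 6.37, 6.61, 6.52 and 6.36 at 10 ppm and 6.41, 6.79, 6.13, 6.57 and 6.40 at 120 ppm. The 3 groups overlapped. Its nearest approach to a call was 0.30 (SE 0.11) at 40 ppm (adjusted p = 0.0618), but its slope from 0 to 40 ppm rose by 0.07 per unit (SE 0.02, adjusted p = 0.00227). Polr1b, the second largest subunit, read 5.00, 5.00, 5.55, 4.78 and 4.96 at 0 ppm, 5.02, 4.78, 5.36, 4.74 and 5.00 at 10 ppm and 5.71, 4.98, 5.00, 4.73 and 5.69 at 120 ppm. All of these lay below the highest nonspecific control, and its differences from 0 ppm ran from -0.12 at 5 ppm to 0.17 at 120 ppm with 0 called. The dimmer probe sets of Polr1a differed by -0.48 and -0.60 at 120 ppm, both called, against 0.10 for the brightest one.

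The box C/D and U3 snoRNP proteins place methyl groups on ribosomal RNA and start its cutting. All 4 of them on the list rose with dose up to 40 ppm, as did 13.2% of all genes. Fbl, the methyltransferase fibrillarin, read 9.01, 8.97, 8.83, 8.80 and 8.81 at 0 ppm, 9.10, 9.21, 8.90, 8.84 and 8.94 at 5 ppm and 9.50, 9.39, 9.40, 9.48 and 9.42 at 10 ppm. Every array at 10 ppm was above every array at the lower doses shown. The rise was 0.56 (SE 0.09) at 10 ppm (adjusted p = 2.23e-05), 0.49 (SE 0.09) at 20 ppm and 0.46 (SE 0.09) at 40 ppm. At 120 ppm the arrays read 9.93, 9.94, 9.83, 9.86 and 9.72, a 1.96-fold rise over 0 ppm.

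Nop58, a scaffold of the same particles, had the largest rise at 20 ppm. Its arrays read 5.00, 5.35, 5.57, 5.85 and 6.22 at 0 ppm, 6.65, 7.40, 5.60, 6.81 and 7.04 at 10 ppm and 6.65, 7.14, 7.43, 7.24 and 7.29 at 20 ppm. The 20 ppm arrays were all above the 0 ppm arrays, while at 10 ppm replicate 3 lay within the 0 ppm range. The difference was 1.55 (SE 0.36) at 20 ppm (adjusted p = 0.00271), at least 2.04-fold with 4 arrays at 0 ppm below the highest control. It was 1.10 (SE 0.36) at 10 ppm (adjusted p = 0.0403), a call lost on leaving out any of 7 arrays, and 0.83 (SE 0.36) at 40 ppm (adjusted p = 0.14). At 1 ppm Nop58 spread from 4.23 to 6.76, the widest of its groups.

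Nop56, the partner scaffold of Nop58, ranged from 8.51 to 8.75 at 0 ppm and read 8.76, 8.80, 8.89, 9.13 and 8.75 at 10 ppm. That difference of 0.23 (SE 0.10) did not pass (adjusted p = 0.162). At 20 ppm it rose by 0.45 (SE 0.10) with a range of 9.01 to 9.23, clear of 0 ppm. At 120 ppm its arrays read 7.89, 7.66, 7.77, 7.83 and 8.32, all below 0 ppm, and it fell by 0.75 (SE 0.10) (adjusted p = 5.92e-08).

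Rrp9, the protein particular to the U3 snoRNP, had the largest rise of any member at any dose. It read 6.72, 6.53, 6.44, 6.18 and 6.35 at 0 ppm, 6.90, 6.82, 6.89, 6.99 and 6.72 at 10 ppm and 8.72, 8.70, 8.68, 9.09 and 7.98 at 120 ppm. The 10 ppm arrays lay just above those at 0 ppm without overlap, and those at 120 ppm stood far above both. The difference of 0.42 (SE 0.15) at 10 ppm did not pass (adjusted p = 0.0627), that of 0.60 (SE 0.15) at 40 ppm did (adjusted p = 0.00501), and at 120 ppm it was 2.19 (SE 0.15), a 4.56-fold rise (adjusted p = 1.31e-14).

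The box H/ACA snoRNPs convert uridines to pseudouridines. Nop10, a protein of these particles outside the member list, was called lower at 10, 20 and 40 ppm. It differed from 0 ppm by -0.35, -0.35 and -0.29 (SE 0.10 each) in order of dose. Gar1, a core protein of these particles, read 7.46, 7.48, 7.45, 7.25 and 7.25 at 0 ppm, 7.79, 7.60, 7.75, 7.88 and 7.71 at 10 ppm and 8.67, 8.62, 8.45, 8.67 and 8.43 at 120 ppm. The 3 groups did not overlap. Its rises were 0.37 (SE 0.11) at 10 ppm (adjusted p = 0.0214, lost on leaving out any of 3 arrays), 0.47 (SE 0.11) at 20 ppm, 0.56 (SE 0.11) at 40 ppm and 1.19 (SE 0.11) at 120 ppm.

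Nhp2, another core protein, rose most at the highest dose. It read 9.29, 9.10, 8.96, 9.01 and 9.11 at 0 ppm, 9.41, 9.21, 9.50, 9.63 and 9.32 at 10 ppm and 10.60, 10.54, 10.41, 10.59 and 10.19 at 120 ppm. At 10 ppm replicate 2 lay within the 0 ppm range, and the difference of 0.32 (SE 0.11) did not pass (adjusted p = 0.0635). The rises at 20 and 40 ppm were 0.53 (SE 0.11) and 0.61 (SE 0.11), and at 120 ppm 1.37 (SE 0.11) (adjusted p = 1.67e-12).

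Dkc1, the pseudouridine synthase dyskerin, had arrays at 5.63, 5.69, 5.71, 6.36 and 6.26 at 0 ppm, 6.19, 6.78, 5.77, 6.12 and 6.43 at 10 ppm and 5.46, 6.00, 5.96, 4.90 and 5.37 at 120 ppm. These groups overlapped, and no dose was called against 0 ppm, with the widest differences 0.47 (SE 0.20) at 20 ppm (adjusted p = 0.134) and -0.39 (SE 0.20) at 120 ppm (adjusted p = 0.0783). Between 120 and 40 ppm it differed by -0.58 (SE 0.20) with an adjusted p of 0.0115, a call lost with array weights (-0.43), centring (-0.18), quantile (-0.23) or cyclic loess normalization (-0.40) and without replicate 4 at 120 ppm (-0.42), and turned to 0.88 by the poly-A covariate. Its dimmer probe set differed by -1.20 between 120 and 0 ppm, which was called.

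Nolc1, a chaperone that shuttles with these particles, read 7.31, 7.32, 7.42, 7.20 and 7.31 at 0 ppm, 8.10, 7.67, 7.73, 7.64 and 7.70 at 20 ppm and 6.22, 6.03, 5.49, 6.28 and 6.53 at 120 ppm. The 20 ppm arrays were all higher, and the 120 ppm arrays all lower, than those at 0 ppm. It rose by 0.46 (SE 0.13) at 20 ppm (adjusted p = 0.0153), a call lost without replicate 1 at 20 ppm, whose value stood above the other 4, and with the mean of its 3 probe sets (0.24, adjusted p = 0.0864). The dimmer probe sets differed by -0.02 and 0.29 at 20 ppm. At 120 ppm it fell by 1.20 (SE 0.13) (adjusted p = 7.69e-10), at least 1.11-fold, with all 5 arrays below the highest control.

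**Figure D4:**
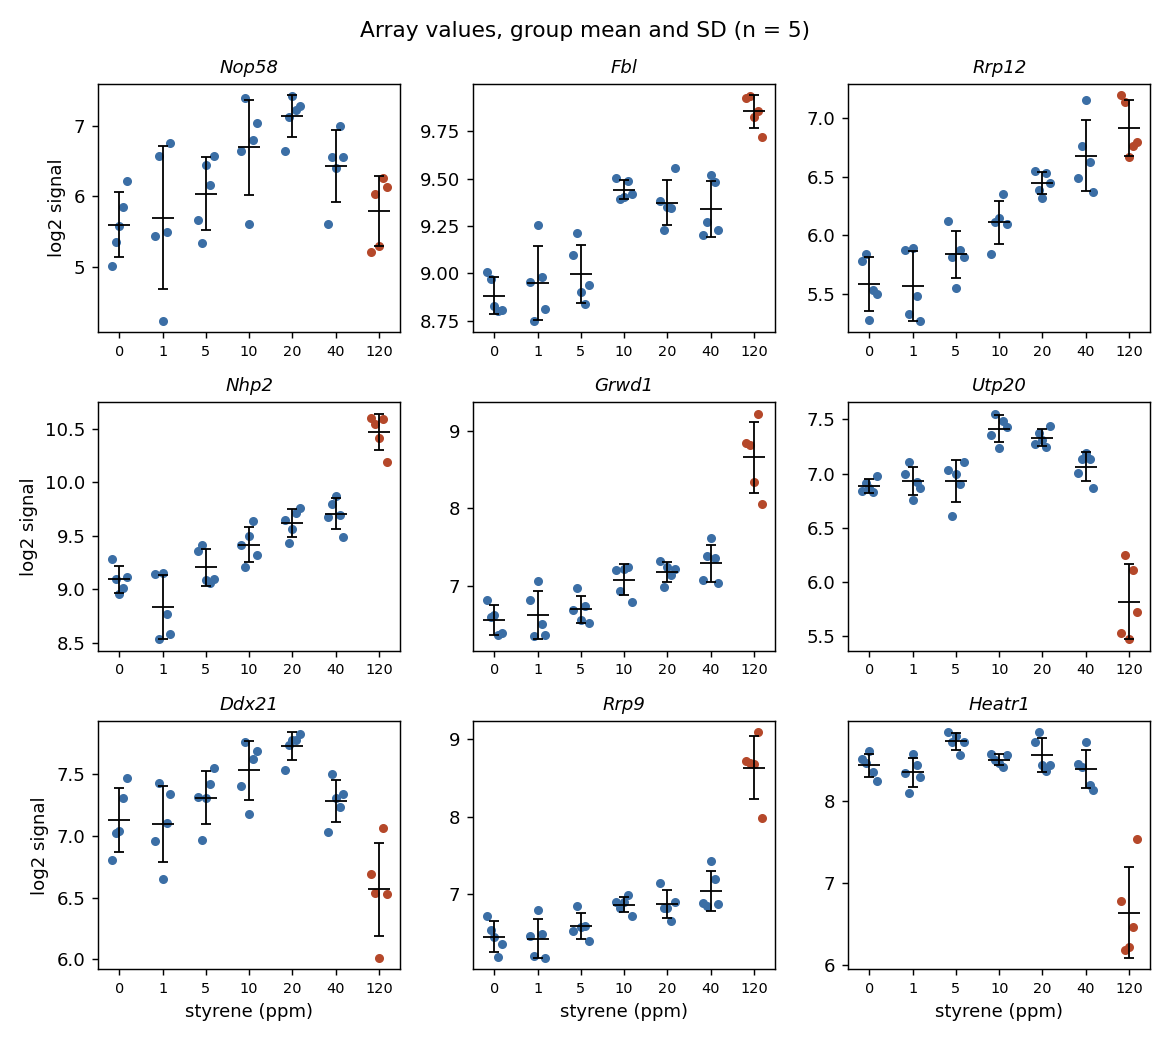
Log2 signal of 9 members on every array (points, blue up to 40 ppm and red at 120 ppm), with group mean and SD (bars, n = 5), by styrene dose; each panel has its own vertical scale and doses are evenly spaced. Nop58, Utp20 and Ddx21 are highest at 10 or 20 ppm, Nhp2, Rrp12, Grwd1 and Rrp9 are highest at 120 ppm, and Heatr1 lies within 0.29 of its 0 ppm mean up to 40 ppm and is lower at 120 ppm.

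There were 9 measured factors of the small subunit processome and 40S maturation. Of these, 2 rose at 10 ppm, 5 at 20 ppm and 2 at 40 ppm, and at 120 ppm 2 rose and 5 fell. As shares, the rises were 22.2%, 55.6% and 22.2% from 10 to 40 ppm, beside 5.17%, 6.45% and 7.69% of all genes. At 120 ppm 22.2% rose and 55.6% fell, beside 42.9% and 31.9% of all genes. Utp20, a large processome scaffold, read 6.84, 6.92, 6.86, 6.83 and 6.98 at 0 ppm, 7.36, 7.55, 7.23, 7.49 and 7.43 at 10 ppm and 5.53, 6.25, 5.48, 6.11 and 5.72 at 120 ppm. The 10 ppm arrays were all above, and the 120 ppm arrays all below, the 0 ppm range. It rose by 0.53 (SE 0.11) at 10 ppm (adjusted p = 0.00118) and 0.45 (SE 0.11) at 20 ppm, differed by 0.18 at 40 ppm (adjusted p = 0.365), and fell by 1.07 (SE 0.11) at 120 ppm (adjusted p = 3.21e-10).

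Rrp12, which takes part in export of the pre-40S particle, had a higher mean at each dose from 5 ppm upwards. It read 5.78, 5.84, 5.28, 5.53 and 5.49 at 0 ppm, 6.55, 6.38, 6.32, 6.53 and 6.45 at 20 ppm, 6.49, 6.76, 7.16, 6.62 and 6.37 at 40 ppm and 7.20, 7.14, 6.67, 6.76 and 6.79 at 120 ppm. From 20 ppm on, every array was above every array at 0 ppm. The rises were 0.52 (SE 0.14) at 10 ppm, 0.86 (SE 0.14) at 20 ppm, 1.09 (SE 0.14) at 40 ppm (adjusted p = 1.37e-06) and 1.33 (SE 0.14) at 120 ppm. Since all 5 arrays at 0 ppm lay below the highest control, these are at least 1.29-fold at 20 ppm, with 1 of the 5 arrays at that dose also below its control, and 1.52-fold at 40 ppm. At 120 ppm 4 of the 5 arrays lay below the highest control of their own array, and no fold is given.

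Heatr1, Wdr43 and Utp15 belong to the subcomplex that joins the precursor first and is tied to its transcription. Heatr1 read 8.51, 8.46, 8.60, 8.35 and 8.24 at 0 ppm, 8.56, 8.49, 8.45, 8.41 and 8.55 at 10 ppm and 6.79, 6.19, 6.23, 6.47 and 7.54 at 120 ppm. Nothing was called up to 40 ppm, with differences from -0.09 at 1 ppm to 0.29 at 5 ppm, and at 120 ppm it fell by 1.79 (SE 0.16) (adjusted p = 5.75e-12, at least 2.15-fold). With 4 of its 5 arrays there below the highest control, and every array of 9 of the 11 fallers, the falls have no known order. Replicate 5 at 120 ppm was the least changed array. The dimmer probe sets of Heatr1, with means of 4.87 and 4.70 in air, differed by -0.73 and -0.04 at 120 ppm. The first of these differences was called and the other was not. Utp15 read 6.92, 6.90, 6.84, 6.83 and 6.86 at 0 ppm, 6.69, 6.91, 6.88, 6.99 and 6.94 at 10 ppm and 5.99, 5.83, 5.14, 5.23 and 6.41 at 120 ppm. Its differences up to 40 ppm lay between -0.04 and 0.09, and it fell by 1.15 (SE 0.14) at 120 ppm (adjusted p = 1.17e-08). Its second probe set rose by 0.36 at 20 ppm (adjusted p = 0.0189 over all probe sets) and with dose up to 40 ppm (adjusted p = 0.000345), and fell by 1.16 at 120 ppm, so whether Utp15 rose below 120 ppm rests on the probe set chosen. Wdr43 differed from these, rising by 0.68 (SE 0.15) at 20 ppm (adjusted p = 0.00194) from a range of 6.32 to 6.73 in air to one of 6.99 to 7.38, before falling by 0.70 at 120 ppm. Its dimmer probe set rose by 0.70 at 20 ppm, which was called, but differed by -0.22 at 120 ppm, which was not. The fall of Wdr43 therefore rests on the probe set chosen.

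Noc4l and Nop14 are partners in the processome, and they parted at 120 ppm. Noc4l read 7.09, 6.95, 6.97, 6.76 and 6.72 at 0 ppm, 7.04, 6.98, 7.12, 7.36 and 6.96 at 10 ppm and 8.45, 8.52, 8.31, 8.31 and 8.15 at 120 ppm. The 120 ppm arrays were all above every other array of this gene, a rise of 1.45 (SE 0.11) or 2.73-fold (adjusted p = 9.65e-14). At 20 ppm its rise of 0.31 (SE 0.11) passed narrowly (adjusted p = 0.0487) and was lost on leaving out any of 9 arrays. Nop14 rose by 0.49 (SE 0.15) at 20 ppm (adjusted p = 0.0309, lost on leaving out any of 7 arrays) and fell by 0.69 (SE 0.15) at 120 ppm (adjusted p = 0.00017). The difference between these 2 genes was not tested. Ddx10, a helicase, and Nob1, the endonuclease that makes the last cut of the small subunit RNA, were called at no dose, with differences from -0.14 to 0.28 and from -0.17 to 0.04. Ddx10 was below the highest control on all arrays at 6 of the doses and on 4 of 5 arrays at 5 ppm.

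Of the 13 factors of 60S assembly, 2 rose at 10 ppm, 6 at 20 ppm and 6 at 40 ppm, and 7 rose and 2 fell at 120 ppm. As shares, the rises were 15.4%, 46.2% and 46.2% from 10 to 40 ppm, beside 5.17%, 6.45% and 7.69% of all genes. At 120 ppm 53.8% rose and 15.4% fell, beside 42.9% and 31.9% of all genes. A difference between the role groups was not tested. Bop1, Pes1 and Wdr12 form the PeBoW complex, which acts in large subunit RNA processing. By their brightest probe sets their signals took 3 different courses. Bop1 read 7.50, 7.30, 7.36, 7.13 and 7.12 at 0 ppm, 7.69, 7.58, 7.62, 7.55 and 7.60 at 10 ppm and 8.99, 9.14, 8.94, 9.11 and 8.67 at 120 ppm. The 3 groups did not overlap, and it rose by 0.41 (SE 0.12) at 20 ppm (adjusted p = 0.0169, lost with centring or on leaving out any of 3 arrays), 0.48 (SE 0.12) at 40 ppm and 1.69 (SE 0.12) at 120 ppm (3.22-fold, adjusted p = 3.1e-14). Wdr12 read 6.04, 6.03, 6.25, 5.95 and 5.97 at 0 ppm, 5.80, 6.36, 6.32, 6.52 and 6.28 at 10 ppm and 4.96, 4.69, 4.02, 3.96 and 5.20 at 120 ppm. It was not called up to 40 ppm and fell by 1.48 (SE 0.19) at 120 ppm (adjusted p = 2.66e-08), where all 5 arrays lay below the highest control and 3 below the next one. Its dimmer probe set, with a mean of 4.43 in air, differed by -0.14 at 120 ppm, which was not called. The fall of Wdr12 therefore rests on the probe set chosen. Pes1 had differences between -0.17 and 0.17 by its brightest probe set, with 0 doses called, but its dimmer probe set fell by 1.69 at 120 ppm, which was called, so the gene's course at that dose rests on the probe set chosen.

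Grwd1, a chaperone of a large subunit ribosomal protein, read 6.82, 6.60, 6.62, 6.37 and 6.39 at 0 ppm, 7.21, 6.93, 7.22, 7.24 and 6.80 at 10 ppm and 8.84, 8.82, 8.34, 9.22 and 8.05 at 120 ppm. At 10 ppm only replicate 5 reached into the 0 ppm range, and at 120 ppm every array was higher. The rises were 0.52 (SE 0.16) at 10 ppm (adjusted p = 0.0288, lost with centring, with the mean of its probe sets or on leaving out any of 5 arrays), 0.62 (SE 0.16) at 20 ppm, 0.73 (SE 0.16) at 40 ppm and 2.10 (SE 0.16) at 120 ppm (4.28-fold).

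Mrto4, a placeholder that keeps the stalk position of the pre-60S particle until it matures, read 8.08, 8.19, 7.90, 7.91 and 7.98 at 0 ppm, 8.47, 8.33, 8.54, 8.59 and 8.36 at 10 ppm and 8.99, 9.10, 8.88, 9.02 and 8.77 at 120 ppm. None of these groups overlapped with 0 ppm. It rose by 0.45 (SE 0.10) at 10 ppm (adjusted p = 0.00287), 0.48 (SE 0.10) at 20 ppm, 0.54 (SE 0.10) at 40 ppm and 0.94 (SE 0.10) at 120 ppm. Nip7, a pre-ribosomal RNA processing factor, read 8.82, 8.68, 8.63, 8.43 and 8.32 at 0 ppm, 8.57, 8.51, 8.65, 8.70 and 8.50 at 10 ppm and 9.07, 9.09, 9.09, 9.15 and 8.75 at 120 ppm. At 10 ppm it differed by 0.01, and only at 120 ppm was it called, with a rise of 0.46 (SE 0.11) (adjusted p = 0.000292) and 4 of 5 arrays above 0 ppm, a call lost with the mean of its probe sets (0.20).

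The other 60S genes followed one of 3 courses. Ddx56, a helicase, Nop2, a methyltransferase of the large subunit RNA, and Noc2l rose at 40 ppm, by 0.55, 0.43 and 0.38, and further at 120 ppm, by 1.60, 1.18 and 1.48. For Noc2l the call at 40 ppm was lost with the mean of its probe sets (0.13, adjusted p = 0.536), as was that of its slope (adjusted p = 0.337), and on leaving out any of 4 arrays, and for Nop2 it was lost without replicate 3 at 40 ppm. Ftsj3, another methyltransferase of the pre-ribosomal RNA, rose by 0.63 (SE 0.17) at 20 ppm (adjusted p = 0.0102), with 2 of the 5 arrays at that dose below the highest control, and fell by 1.07 (SE 0.17) at 120 ppm. Nop16, Noc3l and Rrp1b were called at no dose, with their widest differences 0.31, 0.30 and 0.28, although the slope of Nop16 passed narrowly (adjusted p = 0.0303) and was lost with centring, on the dose in ppm, without the 2 arrays of animal number 15 and on leaving out any of 5 arrays.

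Ddx21, a helicase that acts in both polymerase I transcription and RNA processing, and Lyar, a nucleolar zinc finger protein, both peaked at 20 ppm. Ddx21 read 6.80, 7.03, 7.04, 7.30 and 7.47 at 0 ppm, 7.41, 7.76, 7.18, 7.63 and 7.69 at 10 ppm and 7.54, 7.73, 7.77, 7.77 and 7.82 at 20 ppm. The 20 ppm arrays were all above those at 0 ppm and the 10 ppm arrays partly so, with a rise of 0.60 (SE 0.16) at 20 ppm (adjusted p = 0.00719) against 0.41 (SE 0.16) at 10 ppm (adjusted p = 0.0922). At 120 ppm its arrays read 6.69, 6.54, 6.01, 7.06 and 6.53, a fall of 0.56 that overlapped with 0 ppm in 1 array. Lyar read 6.64, 6.87, 6.76, 6.92 and 7.12 at 0 ppm, 7.23, 7.45, 6.82, 7.30 and 7.22 at 10 ppm and 5.70, 6.06, 6.39, 6.20 and 6.25 at 120 ppm. It rose by 0.63 (SE 0.14) at 20 ppm (adjusted p = 0.00159) and fell by 0.74 (SE 0.14) at 120 ppm (adjusted p = 1.49e-05). Ncl, the abundant nucleolar protein nucleolin, had a single probe set at 3.60, 3.86, 3.47, 3.72 and 3.68 at 0 ppm, 3.59, 3.88, 3.39, 3.56 and 3.72 at 10 ppm and 3.70, 3.41, 3.59, 3.86 and 3.61 at 120 ppm. These values lay below the highest and the next nonspecific control on all 35 arrays.

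The dose at which each member peaked below 120 ppm is given as a count beside its call at 120 ppm, chosen after the values were seen. Of the 24 members with a rising slope, 8 had their highest mean, among the doses from 0 to 40 ppm, at 20 ppm. These were Nop56, Nop58, Nolc1, Wdr43, Nop14, Ftsj3, Ddx21 and Lyar, of which 7 fell at 120 ppm, 0 rose and 1 was not called. Another 14 peaked at 40 ppm, of which 12 rose at 120 ppm, 0 fell and 2, Polr1a and Nop16, were not called. The remaining 2 peaked at 10 ppm, Fbl rising and Utp20 falling at 120 ppm. Over all 13 risers at 120 ppm the mean at 40 ppm minus that at 20 ppm had a median of 0.07, with a range of -0.03 to 0.23, and over the 11 fallers a median of -0.27, with a range of -0.45 to -0.07, while the 11 members not called ranged from -0.72 to 0.41, which covers both. The same tally over all genes with a rising slope had 71.6% of the 1227 that rose at 120 ppm peaking at 40 ppm, and 71.2% of the 638 that fell peaking at 20 ppm or lower, so this order is not particular to the members. Over those genes the medians of the same difference were 0.11 for the risers and -0.08 for the fallers, and the ranges, -1.06 to 0.99 and -1.12 to 0.54, overlapped. Poly-A spike-ins averaged 6.30 at 20 ppm and 6.52 at 40 ppm, and their part in this was not tested.

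Within dose groups the members also moved together to unequal degrees. After each dose mean was removed, the median correlation between 2 members over the 30 arrays from 0 to 40 ppm was 0.242 over 595 pairs (range -0.727 to 0.906), and that of a member with the mean of the others was 0.425, against 0.0611 for all genes. The points share arrays, and with them RNA quality and normalisation. The 13 risers at 120 ppm had correlations with the mean of the others from 0.286 (Noc4l) to 0.625 (Rrp12). Those of the 11 fallers ran from -0.115 (Wdr43) to 0.632 (Nolc1), with 4 below 0, and Nop58 had the lowest of all, -0.246.

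The other factors of both subunits were counted in the same way, beside 5.17%, 6.45%, 7.69% and 42.9% of all genes higher in the groups from 10 to 120 ppm in order of dose, and 31.9% lower in the last. Of 37 measured of 40 other small subunit factors, 5 rose and 1 fell at 10 ppm, 9 rose and 1 fell at 20 ppm, 9 rose and 0 fell at 40 ppm, and 15 rose and 19 fell at 120 ppm. As shares, the rises were 13.5%, 24.3%, 24.3% and 40.5% in order of dose, and the falls at 120 ppm 51.4%. Bysl, a pre-40S factor, rose by 0.74 (SE 0.15), 0.86 (SE 0.15), 0.95 (SE 0.15) and 2.17 (SE 0.15) at these doses. Nol11, a processome protein, fell by 2.41 at 120 ppm (SE 0.15). All 5 of its arrays there lay below the highest control, and no fold is given. Rrs1 is counted among these small subunit factors though it acts in large subunit assembly, and it rose by 0.52 at 40 ppm (SE 0.10). Of 35 measured of 38 other large subunit factors, 3 rose at 10 ppm, 5 at 20 ppm and 3 at 40 ppm with 0 falling, and 10 rose and 17 fell at 120 ppm. As shares, the rises were 8.57%, 14.3%, 8.57% and 28.6%, and the falls at 120 ppm 48.6%. Rpf2, which brings the small 5S particle into the large subunit, rose by 0.60 (SE 0.19) at 10 ppm and 0.76 (SE 0.19) at 20 ppm. At least 3 of 5 Rpf2 arrays lay below the highest control at both doses, and all 5 in air. Las1l, a pre-ribosomal RNA nuclease, fell by 2.11 (SE 0.14) at 120 ppm. This is at least 1.105-fold, with all 5 Las1l arrays at that dose below the highest control. Of 16 measured of 24 other polymerase I and snoRNP factors, 0 rose and 2 fell at 10 ppm, and 1 rose and 3 fell at 20 ppm. At 40 ppm 1 rose and 1 fell, and at 120 ppm 6 rose and 6 fell. As shares, the rises were 0%, 6.25%, 6.25% and 37.5%. The falls were 12.5%, 18.8%, 6.25% and 37.5%, beside 6.62%, 6.74%, 5.04% and 31.9% of all genes. Nop53, counted in this list though it acts in large subunit assembly, fell by 0.45 at 10 ppm (SE 0.07). It also fell by 0.43 at 20 ppm (SE 0.07) and rose by 0.71 at 120 ppm. Polr1e, a polymerase I subunit, rose by 0.52 at 40 ppm (SE 0.12), with 3 of 5 arrays there and all 5 in air below the highest control.

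The structural proteins of the ribosome are what these factors assemble with the RNA, and their genes form a separate list. Of 54 measured of 65 cytosolic ribosomal protein genes, 1 rose and 12 fell at 10 ppm, 1 rose and 2 fell at 20 ppm, and 1 rose and 4 fell at 40 ppm, with medians of -0.12, -0.09 and -0.06. The falls at 10 ppm were 22.2% of the list, against 6.62% of all genes, but at 20 ppm they were 3.7% against 6.74% and at 40 ppm 7.41% against 5.04%. The single riser at 10 and 20 ppm was Rps2, by 0.30 (SE 0.05) and 0.23 (SE 0.05), and Rpl22 had the largest fall at 10 ppm, 0.32 (SE 0.07). At 120 ppm 20 rose (37% against 42.9% of all genes) and 27 fell (50% against 31.9%), with Rpl4 falling by 1.72 (SE 0.09).

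Of 10 measured of 11 genes of the Myc network, 1 rose and 1 fell at 10 ppm, and 1 rose and 3 fell at 20 ppm. At 40 ppm 2 rose and 2 fell, and at 120 ppm 5 rose and 3 fell. The rises were 10%, 10%, 20% and 50% in order of dose, beside 5.17%, 6.45%, 7.69% and 42.9% of all genes. The falls were 10%, 30%, 20% and 30%, beside 6.62%, 6.74%, 5.04% and 31.9% of all genes. Myc averaged 6.28 in air (SD 0.19, n = 5), and 6.87, 7.33, 7.41 and 7.30 in the groups from 10 to 120 ppm. It rose by 0.59 (SE 0.14) at 10 ppm, 1.06 (SE 0.14) at 20 ppm and 1.14 (SE 0.14) at 40 ppm. Its relative Mycl fell by 1.42 at 10 ppm, fell by 2.12 at 20 ppm and fell by 1.90 at 40 ppm (SE 0.23 each). Of its arrays, 4, 5 and 4 of 5 lay below the highest control at these doses, so the falls are at least 2.02-fold, 1.95-fold and 2.09-fold and have no order.

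Genes of DNA replication were already called at 5 ppm. Of 27 measured of 28, 12 rose at 5 ppm, and 23, 23 and 17 rose from 10 to 40 ppm in order of dose. Up to 40 ppm 0 fell, and at 120 ppm 15 rose and 8 fell. The rises were 44.4%, 85.2%, 85.2%, 63% and 55.6% from 5 to 120 ppm. Of all genes 1.13%, 5.17%, 6.45%, 7.69% and 42.9% rose at these doses. The falls at 120 ppm were 29.6%, beside 31.9% of all genes. Uhrf1, which copies DNA methylation at replication forks, rose by 1.61 (SE 0.17) at 5 ppm and 2.20 (SE 0.17) at 10 ppm, at least 1.56-fold and 2.33-fold with all 5 arrays in air below the highest control. Of 9 measured of 10 markers of proliferating cells, 2, 6, 8, 7 and 6 rose from 5 to 120 ppm in order of dose. As shares these were 22.2%, 66.7%, 88.9%, 77.8% and 66.7%, beside the shares of all genes just given. Array means of these markers were 4.29 to 4.84 at 0 ppm, 5.16 to 5.50 at 10 ppm, 5.30 to 5.91 at 20 ppm and 4.63 to 5.33 at 120 ppm. All 9 lay below the highest control on every array at 0 ppm, 4 did at 20 ppm and 8 did at 120 ppm. Markers of club cells, the airway cells that metabolise styrene, averaged 12.26 at 0 ppm, 11.69 at 20 ppm and 10.97 at 120 ppm over 8 genes, with 8 of 8 lower at 120 ppm. Monocyte markers averaged 7.93 at 0 ppm and were highest at 10 ppm, 8.49, before 8.20, 7.94 and 7.22 at 20, 40 and 120 ppm over 7 genes. Endothelial markers had falling slopes for 6 of 10, against 12.9% of all genes. Their mean was 10.16 in air, 9.92 in the 20 ppm group and 9.73 in the 120 ppm group. In the last of these groups 5 of the 10 were called higher and 5 lower. Their differences from air ran from -2.18 to 1.31, so the mean of 9.73 averages over changes in opposite directions. The markers called lower in the 120 ppm group were 5 of 7 for monocytes and 5 of 8 for alveolar macrophages, with 0 higher. For ciliated cells 6 of 8 were lower and 2 higher, and for alveolar type 1 cells 5 of 7 were lower and 2 higher. Of all genes 31.9% were lower and 42.9% higher at this dose. The part of these cell types in the members' changes was not tested.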

How the data were processed

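The authors deposited 1 log2 signal per probe set and array. Per the submitters' processing notes, RMA and Partek were used, and the sources used here do not give the background step, versions or settings. Total RNA was extracted with Trizol and a column and labelled with a 3' IVT kit, per the labels' protocols. Arrays have no read depth, and 5 arrays per group limit the precision.

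There were 45141 probe sets with 104 controls among them. The platform annotation gave 1 gene symbol to 28898, several to 551 and none to 15588. The brightest of a gene's single-symbol probe sets stood for it (17097 genes), and 19 of the measured members had over 1 probe set. The members and gene lists were chosen with earlier results of these data known.

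For each gene, limma 3.58.1 (R 4.3.3; lmFit, eBayes) estimated 7 dose means from all 35 arrays, with 28 residual degrees of freedom and 4.617 from the prior. Standard errors (SE) are limma's, tests are two-sided, and the Benjamini-Hochberg adjustment spans 17097 genes, with a threshold of 0.05. The slope used log2(dose + 1 ppm) over 30 arrays. The script was tested on simulated data. Promoters and figures used Python 3.11.15, pandas 2.3.3, numpy 2.4.6 and matplotlib 3.10.9.

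Values on every array were given for, per role, the members with the smallest and largest p at 10 ppm and the smallest p at 120 ppm, and for the 3 largest changes in each direction. Nop58, Rrp12 and the dimmer probe sets were chosen after their values were seen. Of each pathway list, up to 3 called genes with the largest change were eligible. Alternatives were another summary of probe sets, a filter on dim genes, other variance models and normalisations, array weights, a replicate block, the poly-A level as a covariate, other thresholds and slope scales, and leaving out arrays. The sources used here give no scan date or plate, so no batch was tested. Replicate numbers were not taken to pair the arrays. The median correlation of deviations by number ran from -0.0329 to 0.246, with single pairs from -0.508 to 0.639. Pairs of unlike number were not set beside these, so a link by number was not tested.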

Additional observations from a re-analysis of the deposited data

Results flagged for a closer look

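An array standing apart from the other 4 of its group by Dixon's ratio was found in 7 of 154 groups of members named with values on every array. Chance gives about 1 in 20 such groups. Polr1b read 5.55 on replicate 3 at 0 ppm, against 4.78 to 5.00 on the others. Nolc1 read 7.09 on replicate 5 at 1 ppm, against 7.29 to 7.32, and 8.10 on replicate 1 at 20 ppm, against 7.64 to 7.73. Gar1 read 7.57 on replicate 2 at 20 ppm, against 7.89 to 7.94. Utp15 read 6.63 on replicate 4 at 40 ppm, against 6.90 to 7.01, and Mrto4 8.87 on replicate 3 at 40 ppm, against 8.39 to 8.52. Nip7 read 8.75 on replicate 5 at 120 ppm, against 9.07 to 9.15. Among the calls of these members that rest on such an array, the rise of Nolc1 at 20 ppm was lost without replicate 1, and the rises of Gar1 at 20 ppm, Mrto4 at 40 ppm and Nip7 at 120 ppm passed without theirs.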

How the results depend on the processing

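The count of members rising at 20 ppm was 19, and stayed within 1.5 times of that under every setting run except a fold of at least 1.5, which left 7. That fold also left 1 of 7 at 10 ppm, 4 of 13 at 40 ppm, 0 of 2 from 5 to 10 ppm, 0 of 1 from 10 to 40 ppm and 8 of 24 on the slope. Over all genes that fold left 454 of 884 higher calls at 10 ppm, 511 of 1102 at 20 ppm and 510 of 1315 at 40 ppm. It left 108 of 257 from 5 to 10 ppm, 198 of 726 from 10 to 40 ppm and 675 of 2250 rising slopes. At 10 ppm the count was 11 without dim genes, with cyclic loess, with the replicate block and with the poly-A covariate, 16 with array weights, 13 with only the groups compared and 12 at an adjusted p of 0.1. The higher calls over all genes were then 785 (of 8548 genes), 1119, 966, 1003, 1437, 1081 and 1081 in the same order, against 884. At 120 ppm centring raised the higher members from 13 to 20, and from 11 to 18 against 40 ppm. It also raised the higher calls over all genes, from 7342 to 10650 and against 40 ppm from 6798 to 10648. The poly-A covariate reduced the lower members from 11 to 5, and against 40 ppm the higher from 11 to 2 and the lower from 12 to 6. It also reduced the share of all genes called, from 74.8% to 26.3% and against 40 ppm from 70.9% to 18.9%. From 5 to 10 ppm the 2 became 4 with the mean of all probe sets, quantile or cyclic loess normalization, without 120 ppm replicates 4 and 5, with only the groups compared and at an adjusted p of 0.1, 6 with array weights and 8 with the poly-A covariate. The 257 higher calls over all genes became 260, 339, 390, 403, 358, 367, 615 and 372 in the same order. From 10 to 40 ppm the 1 became 2 with the mean of probe sets, without dim genes, with the block, without 120 ppm replicates 4 and 5, with only the groups compared and at 0.1, and 5 with array weights. There 1 member fell, against 0, without dim genes, with array weights, without 120 ppm replicates 4 and 5, with only the groups compared and at 0.1. From 10 to 40 ppm the all-gene split of 726 higher and 280 lower became 1865 and 843 with array weights. It became 1211 and 496 without 120 ppm replicates 4 and 5, and 883 and 303 (of 8548 genes) without dim genes. Falling slopes went from 0 to 5 members over all 35 arrays, and over all genes from 2198 to 4788. The replicate block changed no other count by over 1.5 times, and its numbers were not taken to pair the arrays.

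Leaving out each array gave 4 (without 10 ppm replicate 4) to 9 members higher at 10 ppm, 14 to 20 at 20 ppm, 9 to 15 at 40 ppm, 13 to 15 higher and 11 to 12 lower at 120 ppm, 11 to 12 and 11 to 13 against 40 ppm, 2 to 3 from 5 to 10 ppm, 0 to 2 higher and 0 to 1 lower from 10 to 40 ppm, and 23 to 25 rising slopes. The 0 came without 10 ppm replicate 1 or 40 ppm replicate 3, the 2 without 40 ppm replicate 5 and the 1 lower without 10 ppm replicate 3. At 1 and 5 ppm every such count was 0.

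The mean of all probe sets turned Polr1a to -0.33 and Pes1 to -0.81 at 120 ppm. Centring turned Nob1 to 0.29 and Ncl to 0.36 at 120 ppm, and Pes1 to 0.30 against 40 ppm. The poly-A covariate turned Dkc1 to 1.04, Wdr43 to 0.0012, Nop14 to 0.51, Nip7 to -0.36 and Ddx21 to 0.22 against 0 ppm. Against 40 ppm it turned Nop58 to 2.28, Dkc1 to 0.88, Gar1 to -0.0049, Nhp2 to -0.025, Nop14 to 0.34, Nip7 to -0.66, Mrto4 to -0.30 and Ddx21 to 0.080. Over all 35 arrays the slopes of Nop56 (-0.028), Nolc1 (-0.089), Heatr1 (-0.18), Wdr43 (-0.035), Utp15 (-0.11), Utp20 (-0.087), Nop14 (-0.039), Wdr12 (-0.14), Ftsj3 (-0.060), Ddx21 (-0.032) and Lyar (-0.031) turned. The causes were not tested. Array weights raised the share of all genes called from 11.8% to 21% at 10 ppm and from 13.2% to 23.8% at 20 ppm. Members below the highest nonspecific control, such as Polr1b, Ddx10 and Ncl, are limited by signal over background.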
